A study of Mus musculus with 6 samples.

Results

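A set of 10 p53 target genes was followed in mouse cells with and without Ki-67. They were Cdkn1a, Mdm2, Ccng1, Bax, Bbc3, Phlda3, Trp53inp1, Sesn1, Gdf15 and Zmat3, a list of known targets of the transcription factor p53, matched by gene symbol. All 10 are among the 54146 gene identifiers counted, and all 10 passed the filter on low counts that left 13120 genes for testing. KO clone 1 and KO clone 2, each labelled Mki67-/-, were set against WT, labelled wild type. All 3 groups are NIH/3T3 cells, an immortalised fibroblast line from Swiss albino mouse embryos, grown in DMEM with foetal bovine serum. Each knockout line is 1 clone, each group held 2 libraries of rRNA-depleted, strand-specific total RNA, and the sources used here do not say how the clones were made. No label names a DNA-damaging agent or any other treatment.

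p53 binds DNA as a tetramer and raises transcription of genes that stop the cell cycle, start apoptosis, limit metabolism or feed back on p53 itself. Its level is held down by the ubiquitin ligase Mdm2, a product of one of its own targets, and the Arf protein of the Cdkn2a locus blocks Mdm2. NIH/3T3 cells are known to lack that locus while keeping a p53 gene. Ki-67, the product of Mki67, coats mitotic chromosomes and is widely used as a mark of proliferating cells.

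The upstream sequences of the members were searched for the p53 response element, a pair of decamers of 10 bases each. The search took the consensus with no spacer, at most 3 mismatches and the core C and G of each decamer intact, in the 250 bases before each annotated start (RefSeq, GRCm38.p6). This consensus is its own reverse complement, so a search of 1 strand covers both. Promoter windows were matched for 8 of the 10 members, 13 windows in all, and 4 windows of 4 members held a match, against 374 of 32851 windows over all genes (1.14%). These 4 are shown because 3 of them belong to members that changed, and capitals mark the 20 matched bases.
Cdkn1a: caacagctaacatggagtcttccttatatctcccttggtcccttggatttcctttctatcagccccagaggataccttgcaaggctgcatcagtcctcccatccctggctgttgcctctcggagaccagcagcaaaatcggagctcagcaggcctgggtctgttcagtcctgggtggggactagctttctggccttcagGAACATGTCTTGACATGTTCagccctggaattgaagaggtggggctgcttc
Ccng1: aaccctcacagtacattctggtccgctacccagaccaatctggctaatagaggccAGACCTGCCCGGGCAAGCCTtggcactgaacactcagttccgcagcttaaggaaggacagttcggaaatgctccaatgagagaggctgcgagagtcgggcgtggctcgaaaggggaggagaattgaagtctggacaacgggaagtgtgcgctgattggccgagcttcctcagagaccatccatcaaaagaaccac
Bbc3: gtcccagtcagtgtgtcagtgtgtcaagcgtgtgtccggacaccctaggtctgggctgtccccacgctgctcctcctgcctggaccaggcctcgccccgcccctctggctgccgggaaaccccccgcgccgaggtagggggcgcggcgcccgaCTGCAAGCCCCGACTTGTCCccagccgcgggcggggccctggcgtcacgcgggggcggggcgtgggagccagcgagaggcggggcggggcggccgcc
Sesn1: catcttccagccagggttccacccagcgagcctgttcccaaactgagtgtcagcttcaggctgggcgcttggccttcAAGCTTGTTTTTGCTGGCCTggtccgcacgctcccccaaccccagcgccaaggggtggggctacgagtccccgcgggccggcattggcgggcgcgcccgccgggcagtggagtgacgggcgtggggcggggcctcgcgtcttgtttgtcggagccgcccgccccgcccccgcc
The Cdkn1a window is chr17:29090729-29090978 on the plus strand, upstream of one of 2 annotated starts, and its match, 1 mismatch from the consensus, began 51 bases before that start. The Ccng1 window is chr11:40755287-40755536 on the minus strand, with 1 mismatch and a match that began 195 bases before the start. At most 1 mismatch was found in 19 of the 32851 windows (0.0578%). The Bbc3 window shown, chr7:16309333-16309582 on the plus strand, held a match with 3 mismatches that began 97 bases before its start. Bbc3 has other annotated starts, and their windows held no match. The Sesn1 window shown, chr10:41887189-41887438 on the plus strand, held a match with 3 mismatches that began 173 bases before its start. The window of the other annotated start of Sesn1 held no match. Mdm2, Bax, Phlda3 and Gdf15 had no match in their windows, and of these Mdm2 and Gdf15 also changed. A match is a description of letters and no match says only that these letters are not in the window. The p53-responsive promoter of Mdm2 is known to lie inside the gene, within an intron.

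Gene counts summed to 19678782 and 15491116 in the KO clone 1 libraries, to 15862850 and 15087148 in KO clone 2, and to 3873249 and 11377172 in WT, so WT replicate 1 was the shallowest. Levels are given as CPM, read counts relative to the TMM-scaled library total, and 3 counts correspond to 0.151 CPM in the deepest library and 0.814 CPM in the shallowest. Log2 CPM values correlated at 0.992 within each clone, at 0.981 to 0.983 between clones, at 0.920 to 0.947 between knockout and WT libraries and at 0.977 within WT; genes are not independent replicates. Mki67, the targeted gene (chromosome 7, 135689784 to 135716361), had 4.24 and 4.58 CPM in KO clone 1 and 4.32 and 7.69 CPM in KO clone 2, against 49.1 and 55.1 CPM in WT. Its transcript was lower in every knockout library and remained countable in each. The protocol text of the labels names 4T1, an epithelial mammary tumour line, whereas titles, sources and tissue labels name NIH/3T3 fibroblasts. Among epithelial markers Epcam had 0 counts in all 6 libraries, and Krt8, Cdh1 and Krt14 reached at most 0.505, 0.543 and 0.858 CPM. The fibroblast genes Col1a2 and Vim ranged from 1290 to 2156 CPM and from 3351 to 5393 CPM. Nothing in the labels tells whether the 2 replicates of a group are separate cultures, and p-values here measure the spread between libraries, which may be technical.

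The p53 targets did not all move in one direction in the knockout cells. In the mean of both clones against WT, 2 members rose (Mdm2 and Ccng1), 2 fell (Bbc3 and Gdf15) and 6 did not pass the test, with a gene called at an adjusted p below 0.05 by edgeR's quasi-likelihood test over all 13120 genes. In that comparison 34.8% of all tested genes were called, 16.6% higher and 18.2% lower, so 4 of 10 members is close to the background. The median log2 fold change was -0.03 over the members and 0.00 over all genes tested. KO clone 1 had 3 members higher and 1 lower, where 31.7% of all genes were called, and a median of 0.20 beside 0.01 over all genes. KO clone 2 had 2 members higher and 3 lower, where 27.4% of all genes were called, and a median of -0.24 beside 0.00 over all genes. Called in both clones in one direction were 3 members, Mdm2 and Ccng1 higher and Bbc3 lower, beside 9.57% of all genes higher and 11.2% lower. Both clone comparisons share the WT libraries. Directions differed between members and, for Cdkn1a, between clones. In bulk RNA, a change in the share of cells that express a gene and a change in its level per cell cannot be told apart.

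**Figure D1:**
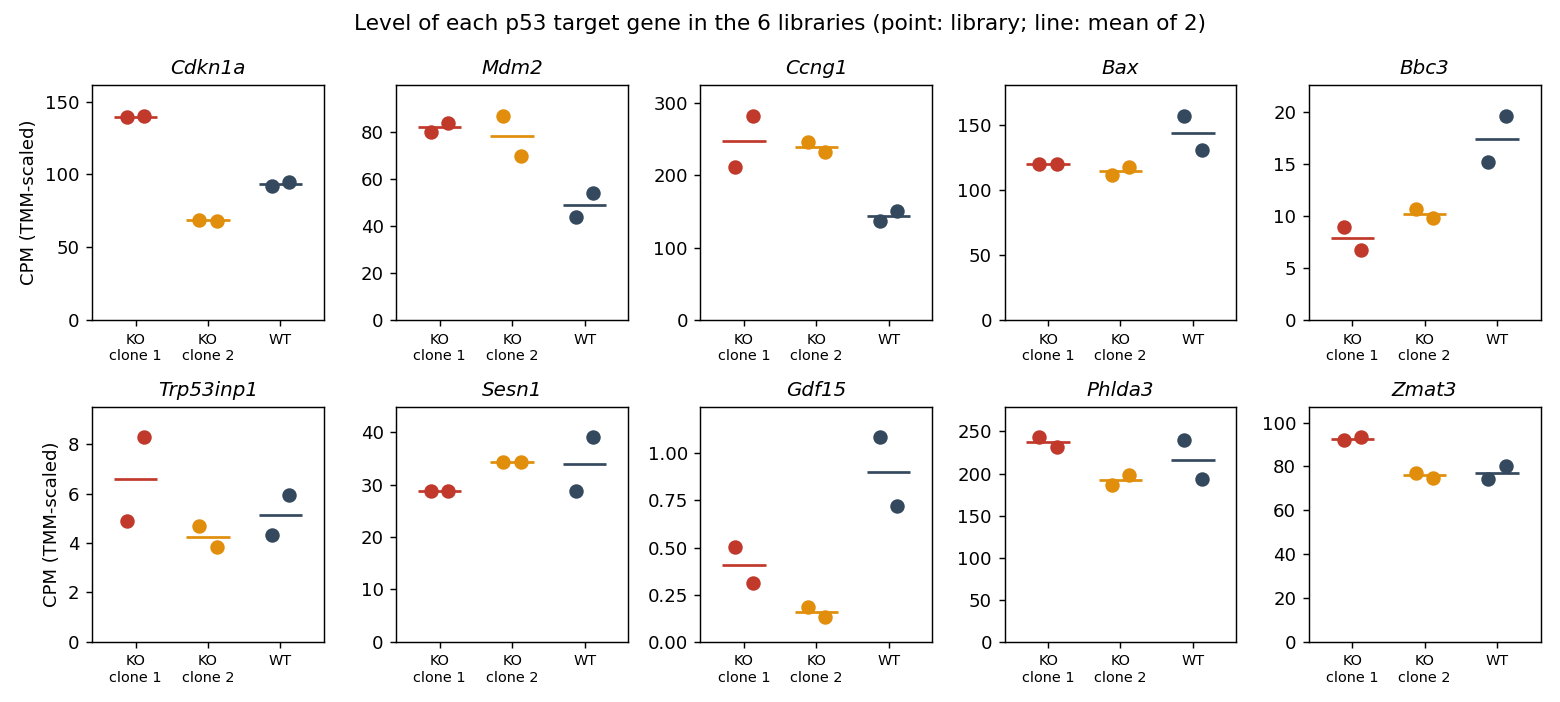
Level of each of the 10 p53 target genes in CPM scaled by TMM (vertical axis, linear and starting at 0) in KO clone 1, KO clone 2 and WT; each point is 1 library and each line the mean of 2. Mdm2 and Ccng1 lie higher and Bax, Bbc3 and Gdf15 lower in all 4 knockout libraries than in both WT libraries, and Cdkn1a lies above WT in KO clone 1 and below it in KO clone 2.

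Cdkn1a encodes p21, the inhibitor of cyclin-dependent kinases through which p53 stops the cell cycle, and it was the one member that moved in opposite directions in the clones. Cdkn1a (ENSMUSG00000023067, chromosome 17, 29090976 to 29100727, plus strand) had 139.1 and 140.4 CPM in KO clone 1, 68.6 and 68.2 CPM in KO clone 2, and 92.3 and 94.7 CPM in WT. The 3 groups did not overlap, and libraries of one group lay close together. It rose by 0.58 ± 0.12 (log2, SE) in KO clone 1 against WT (adjusted p = 0.00266). It fell in KO clone 2, with a log2 fold change of -0.45 ± 0.12 (adjusted p = 0.0143). These opposite changes left a mean over both clones of 0.06 ± 0.11 (adjusted p = 0.682).

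KO clone 2 against KO clone 1 gave a log2 difference of -1.03 ± 0.12 for Cdkn1a (adjusted p = 1.31e-04). Cdkn1a was the only member called between the clones, where 3.54% of all genes were called, 2.36% lower and 1.18% higher. Calls in both clones with opposite signs were rare over all genes, at 12 of 13120 (0.0915%). The 621 tested genes of chromosome 17, where Cdkn1a lies, had median log2 fold changes of 0.11 in KO clone 1 and -0.09 in KO clone 2. Between the clones their median was -0.19, the lowest of 20 chromosomes. The rise in KO clone 1 and the difference between clones passed the test under each of 18 alternatives. The fall in KO clone 2 did not pass without replicate 1 (-0.47) or replicate 2 (-0.46) of that clone. It also did not pass with an offset for GC content and exon length (-0.29, adjusted p = 0.0623). An antisense transcript overlaps Cdkn1a, and the counts used separate the strands.

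The genes nearest to Cdkn1a in pattern were Dusp1, Slc35b4 and Eno3, out of 5196 protein-coding genes whose average log2 CPM was 5 or more. Dusp1 lies on chromosome 17 (26505590 to 26562128), as does Cdkn1a, with Slc35b4 on chromosome 6 and Eno3 on chromosome 11. Whether position plays a part in the likeness was not tested. Likeness was the root mean square difference of centred log2 CPM over the 6 libraries, which came to 0.120 for Dusp1, 0.128 for Slc35b4 and 0.130 for Eno3. Dusp1, a phosphatase of MAP kinases, had 174.2 and 159.4 CPM in KO clone 1, 79.9 and 85.7 CPM in KO clone 2, and 113.4 and 93.6 CPM in WT. Slc35b4, a nucleotide sugar transporter, had 134 and 124.2 CPM in KO clone 1, 59.2 and 54.7 CPM in KO clone 2, and 77.6 and 68.4 CPM in WT. Eno3, the muscle form of enolase, had 62.6 and 66.1 CPM in KO clone 1, 32.6 and 36.3 CPM in KO clone 2, and 37.7 and 39.1 CPM in WT. All 3 were highest in KO clone 1 and lowest in KO clone 2, which is how they were chosen, so no test is given.

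The feedback regulators Mdm2 and Ccng1 rose in both clones. Mdm2, the ubiquitin ligase that marks p53 for destruction (ENSMUSG00000020184, chromosome 10, 117688875 to 117710758, minus strand), had 79.9 and 83.8 CPM in KO clone 1, 86.8 and 69.6 CPM in KO clone 2, and 43.7 and 54.0 CPM in WT. Every knockout library lay above both WT libraries. The log2 fold change of Mdm2 was 0.73 ± 0.15 in KO clone 1 (adjusted p = 0.00259), 0.66 ± 0.15 in KO clone 2 (adjusted p = 0.00575) and 0.69 ± 0.14 for their mean (adjusted p = 0.00146). The clones differed by -0.06 ± 0.14 (adjusted p = 0.893). Without KO clone 2 replicate 1 the value of that clone was 0.49 (adjusted p = 0.110).

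Ccng1 encodes cyclin G1, which brings a phosphatase to Mdm2 and so tunes it. Ccng1 (ENSMUSG00000020326, chromosome 11, 40748552 to 40755311, minus strand) had 211.8 and 282.8 CPM in KO clone 1, 245.9 and 232.5 CPM in KO clone 2, and 136.8 and 150.7 CPM in WT. The groups of knockout and WT libraries did not overlap. On the log2 scale it rose by 0.78 ± 0.15 in KO clone 1 (adjusted p = 0.00147), 0.73 ± 0.15 in KO clone 2 (adjusted p = 0.00276) and 0.76 ± 0.13 for the mean (adjusted p = 7.26e-04). With the GC and length offset, and Ccng1 transcripts at 40.8% GC, the mean was 0.32 (adjusted p = 0.0206) and the value in KO clone 2 was 0.27 (adjusted p = 0.0843). Mdm2 and Ccng1 were the 2 members with all 4 knockout libraries above both WT libraries, a pattern that 25.1% of tested genes shared.

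**Figure D2:**
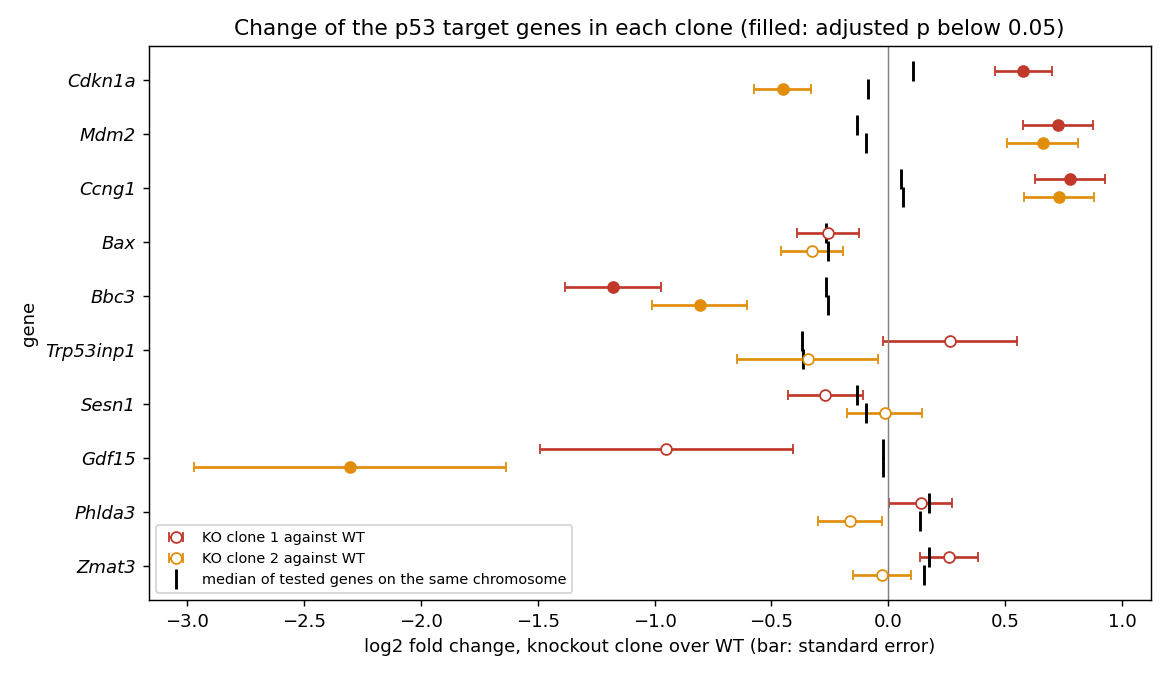
Log2 fold change of each p53 target gene (horizontal axis) in KO clone 1 and in KO clone 2, each over WT, with bars of 1 standard error; filled points have an adjusted p below 0.05 and black ticks are the median of tested genes on the same chromosome. Mdm2 and Ccng1 lie to the right of 0 in both clones, Bbc3 to the left in both, Cdkn1a on opposite sides, and Bax beside the tick of its chromosome.

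Among the members, the apoptosis genes Bbc3 and Bax were lower or did not pass the test. Bbc3 encodes Puma, a BH3-only protein that frees Bax and Bak to permeabilise mitochondria. Bbc3 (ENSMUSG00000002083, chromosome 7, 16308393 to 16318205, plus strand) had 8.98 and 6.72 CPM in KO clone 1, 10.7 and 9.77 CPM in KO clone 2, and 15.2 and 19.6 CPM in WT. All 4 knockout libraries lay below both WT libraries. Log2 fold changes were -1.18 ± 0.21 in KO clone 1 (adjusted p = 7.71e-04), -0.81 ± 0.20 in KO clone 2 (adjusted p = 0.00989) and -0.99 ± 0.18 for the mean (adjusted p = 7.75e-04). The mean passed the test under all 18 alternatives, at values of -1.13 to -0.72. In KO clone 2 the call ended without WT replicate 2 (-0.56, adjusted p = 0.0992) or KO clone 2 replicate 2 (-0.75, adjusted p = 0.0662), thinned to equal depth (-0.58, adjusted p = 0.108) and with chromosomes centred (-0.55, adjusted p = 0.0663).

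Bax, the pore-forming member of the BCL2 family (ENSMUSG00000003873, chromosome 7, 45461697 to 45466898, minus strand), had 119.8 and 120.2 CPM in KO clone 1, 111.4 and 117.5 CPM in KO clone 2, and 157.4 and 130.8 CPM in WT. The knockout libraries lay below both WT libraries, but the change did not pass the test. Its log2 fold change was -0.26 ± 0.13 in KO clone 1 (adjusted p = 0.152), -0.33 ± 0.13 in KO clone 2 (adjusted p = 0.0810) and -0.29 ± 0.11 for the mean (adjusted p = 0.0601). The 1001 tested genes of chromosome 7, where Bax, Bbc3 and Mki67 lie, had a median of -0.26 for the mean. With each chromosome centred on its median Bax was at -0.01 (adjusted p = 0.940), whereas Bbc3 was at -0.72 (adjusted p = 0.00842). The mean of Bax passed without WT replicate 2 (-0.42, adjusted p = 0.0135) and thinned to equal depth (-0.34, adjusted p = 0.0365). A gene on the same strand, Gm45808, overlaps Bax, and reads that fit both are not counted.

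Phlda3, a pleckstrin homology protein that competes with Akt for membrane lipids (ENSMUSG00000041801, chromosome 1, 135766119 to 135769136, plus strand), had 243.0 and 231.8 CPM in KO clone 1, 186.1 and 198.6 CPM in KO clone 2, and 239.6 and 193.1 CPM in WT. Both clones overlapped WT. Log2 fold changes were 0.14 ± 0.14 in KO clone 1 (adjusted p = 0.461), -0.16 ± 0.14 in KO clone 2 (adjusted p = 0.399) and -0.01 ± 0.12 for the mean (adjusted p = 0.950). With the same offset, and Phlda3 transcripts at 62.6% GC, the mean was 0.24 (adjusted p = 0.0476) and KO clone 1 was at 0.39 (adjusted p = 0.00884).

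Trp53inp1 encodes a stress protein that aids p53 phosphorylation and autophagy. Trp53inp1 (ENSMUSG00000028211, chromosome 4, 11156431 to 11174379, plus strand) had 4.89 and 8.29 CPM in KO clone 1, 4.69 and 3.84 CPM in KO clone 2, and 4.34 and 5.95 CPM in WT. The groups overlapped, and KO clone 1 replicate 2 was the highest library. Fitted log2 fold changes were 0.27 ± 0.29 in KO clone 1 (adjusted p = 0.515), -0.34 ± 0.30 in KO clone 2 (adjusted p = 0.432) and -0.04 ± 0.26 for the mean (adjusted p = 0.926). Under the GC and length offset KO clone 2 was at -0.85 (adjusted p = 0.0306). KO clone 2 minus KO clone 1 was -0.61 ± 0.26 (adjusted p = 0.264). With 1 WT library left out that difference passed the test at -0.61 (adjusted p = 0.0465 without WT replicate 1).

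The remaining members act in metabolism, secretion and RNA control. Sesn1, a sestrin that restrains the growth kinase mTORC1 (ENSMUSG00000038332, chromosome 10, 41809935 to 41908424, plus strand), had 28.8 and 28.7 CPM in KO clone 1, 34.4 and 34.3 CPM in KO clone 2, and 28.8 and 39.0 CPM in WT. The WT libraries spanned nearly the whole range of the knockout libraries. Its log2 fold change was -0.27 ± 0.16 in KO clone 1 (adjusted p = 0.221), -0.01 ± 0.16 in KO clone 2 (adjusted p = 0.958) and -0.14 ± 0.14 for the mean (adjusted p = 0.469). Without WT replicate 1, the lower of the WT libraries, KO clone 1 was at -0.44 (adjusted p = 0.0434). The same-strand gene 9930024M15Rik overlaps Sesn1, and reads that fit both are not counted.

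Zmat3, a zinc finger protein that binds RNA (ENSMUSG00000027663, chromosome 3, 32334792 to 32366014, minus strand), had 91.9 and 93.2 CPM in KO clone 1, 77.1 and 74.9 CPM in KO clone 2, and 74.1 and 80.1 CPM in WT. KO clone 1 lay above WT, and KO clone 2 lay within the WT range. Its log2 fold change was 0.26 ± 0.12 in KO clone 1 (adjusted p = 0.126), -0.03 ± 0.12 in KO clone 2 (adjusted p = 0.905) and 0.12 ± 0.11 for the mean (adjusted p = 0.436). Scaled by library totals alone, KO clone 1 was at 0.34 (adjusted p = 0.0443).

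Gdf15, a secreted stress cytokine of the TGF-beta family (ENSMUSG00000038508, chromosome 8, 70629393 to 70632456, minus strand), was near the detection limit. It had 10 and 5 counts in KO clone 1, 3 and 2 counts in KO clone 2, and 4 and 8 counts in WT, or 0.505 and 0.314, 0.185 and 0.130, and 1.09 and 0.721 CPM. All knockout libraries lay below WT in CPM. Pooled over the libraries of each group (15, 5 and 12 counts over the summed scaled totals), the ratio was 0.517 in KO clone 1 over WT (95% counting interval 0.226 to 1.21) and 0.195 in KO clone 2 over WT (0.0539 to 0.595), intervals that cover counting error only. The fitted log2 fold change was -0.95 ± 0.54 in KO clone 1 (adjusted p = 0.199), -2.30 ± 0.67 in KO clone 2 (adjusted p = 0.0203) and -1.63 ± 0.54 for the mean (adjusted p = 0.0315). The mean lost its call in 9 of 16 alternatives and KO clone 2 in 6 of 15, the fits without WT replicate 1, WT replicate 2, KO clone 2 replicate 1 or KO clone 2 replicate 2 among them in both. The mean also lost it without KO clone 1 replicate 2, and adjusted p reached 0.139 for the mean and 0.132 for KO clone 2. Bax, Bbc3 and Gdf15 were the members with all 4 knockout libraries below both WT libraries, as were 24.7% of tested genes; the 5 members apart in either direction stand beside 49.8% of tested genes.

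**Figure D3:**
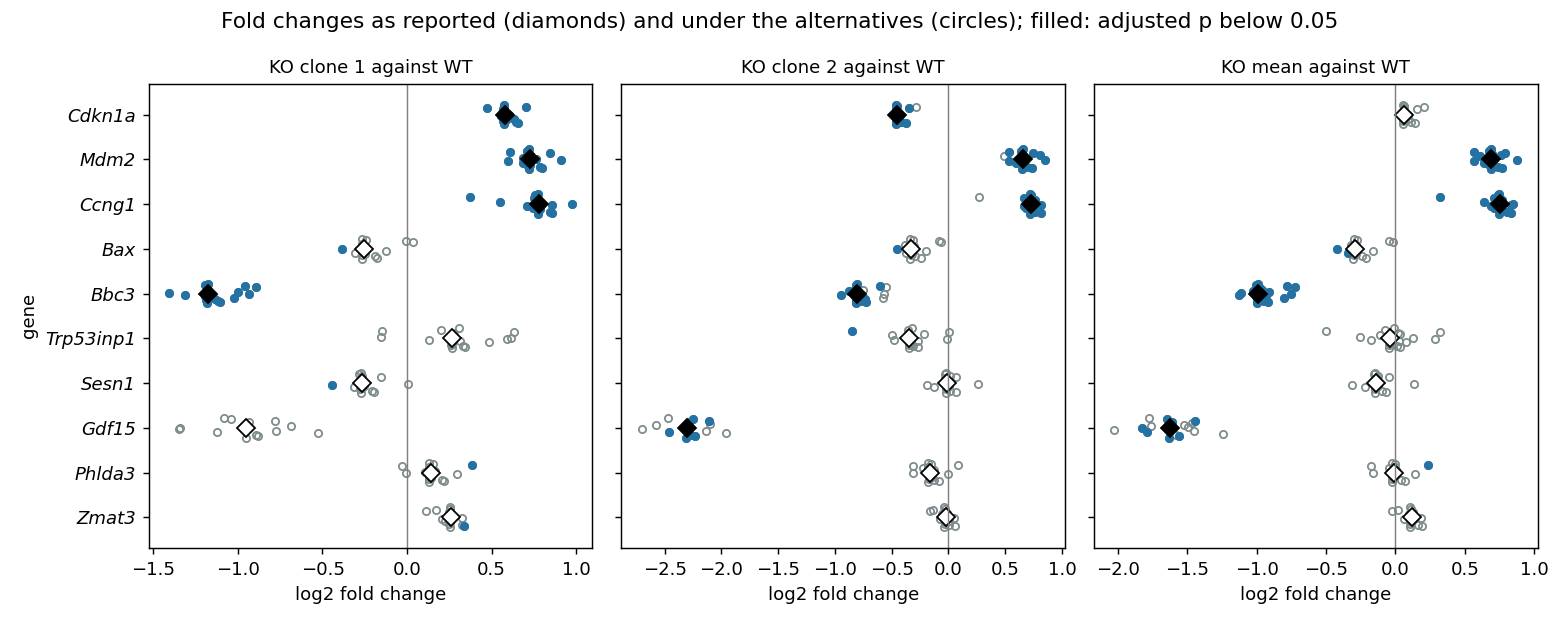
Log2 fold change of each p53 target gene (horizontal axis) in KO clone 1, KO clone 2 and their mean, each against WT, as reported (diamonds) and under every alternative processing that gave a value (circles); filled symbols have an adjusted p below 0.05. The circles of Mdm2, Ccng1 and Bbc3 stay on one side of 0 in all 3 panels, and most circles of Gdf15 in the mean are open.

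Set side by side per kilobase of exon, the members spanned a wide range of levels. Phlda3 was highest at 152.3 CPM per kb in KO clone 1, 123.4 in KO clone 2 and 138.8 in WT, above at least 97.4% of 11296 protein-coding genes in each group. Bax followed at 76.2, 72.6 and 91.4 CPM per kb, and Ccng1 at 70.4, 68.1 and 40.9 CPM per kb in KO clone 1, KO clone 2 and WT. Bax and Ccng1 lay closer together in the knockout groups than in WT. Cdkn1a reached 39.3 CPM per kb in KO clone 1, 19.3 in KO clone 2 and 26.3 in WT, at the 89.5, 78.5 and 82.9 percentiles of protein-coding genes. Mdm2 reached 16.1 CPM per kb in KO clone 1, 15.4 in KO clone 2 and 9.61 in WT, and Bbc3 3.70, 4.81 and 8.20 in the same order. Sesn1 had 7.22 CPM per kb in KO clone 1, 8.62 in KO clone 2 and 8.51 in WT, and Zmat3 had 8.09, 6.65 and 6.74. Both lay between Mdm2 and Bbc3 in the clones, whereas in WT Zmat3 lay below Bbc3 with no overlap of their libraries. In WT the neighbours Mdm2 (8.60 and 10.6), Sesn1 (7.22 and 9.80) and Bbc3 overlapped, so their order there is not resolved. Trp53inp1 had 1.02 CPM per kb in KO clone 1, 0.659 in KO clone 2 and 0.794 in WT, and Gdf15 was lowest at 0.221, 0.0851 and 0.488.

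The genes that control p53 were examined next. Trp53, the p53 gene (chromosome 11, 69580359 to 69591873), had 211.3 and 185.0 CPM in KO clone 1, 189.1 and 186.3 CPM in KO clone 2, and 220.6 and 190.4 CPM in WT, so its libraries overlapped (mean log2 fold change -0.09 ± 0.11, adjusted p = 0.590). Cdkn2a, the locus of Arf, had 0 counts in all 6 libraries, which allows at most 0.151 to 0.814 CPM by library. Mdm4, the partner of Mdm2 that blocks the activation domain of p53, had 27.0 and 37.9 CPM in KO clone 1, 29.0 and 30.6 CPM in KO clone 2, and 15.5 and 16.9 CPM in WT. Like Mdm2, it was higher in each knockout library, with a mean log2 fold change of 0.92 ± 0.17 (adjusted p = 0.00101). Of 19 regulators 17 were tested, of which 7 rose, 2 fell and 8 did not pass, beside 16.6% of all tested genes higher and 18.2% lower, with a median of 0.21. The deacetylase gene Sirt1, whose product removes acetyl groups from p53, fell to 2.83 and 3.58 CPM in KO clone 1 and 4.75 and 5.67 CPM in KO clone 2, against 11.1 and 10.2 CPM in WT (mean log2 fold change -1.37 ± 0.19). The DNA damage kinase gene Atr was higher by 0.95 ± 0.21 (log2) in the mean, and Cop1, another ubiquitin ligase of p53, rose by 0.68 ± 0.18. The mean of Atr was 0.43 under the GC and length offset, where neither clone alone was called, and 1.67 without WT replicate 2. With that offset Mdm4 was at 0.57 and Cop1 at 0.10 (adjusted p = 0.707 for Cop1).

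A wider list of 39 p53 targets, of which 34 were tested, also moved both ways. In the mean 5 rose, 10 fell and 19 did not pass, with a median log2 fold change of -0.17. KO clone 1 had 6 higher and 10 lower, and KO clone 2 had 4 higher and 7 lower. In both clones 9 genes were called in the same direction, 3 higher and 6 lower, beside 9.57% and 11.2% of all tested genes. The shares called were 44.1% in the mean, 47.1% in KO clone 1 and 32.4% in KO clone 2, beside 34.8%, 31.7% and 27.4% of all tested genes. Ephx1, an epoxide hydrolase gene, had 244 and 215 CPM in KO clone 1, 152 and 167 CPM in KO clone 2, and 101.5 and 100.8 CPM in WT (mean log2 fold change 0.92 ± 0.12, adjusted p = 5.12e-05). The 3 groups did not overlap, with KO clone 1 highest and WT lowest.

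Among the falls, Sesn2, the stress-induced sestrin gene, had 46.0 and 42.4 CPM in KO clone 1, 43.7 and 47.5 CPM in KO clone 2, and 90.1 and 92.6 CPM in WT. The clones lay together, well below WT, with a mean log2 fold change of -1.03 ± 0.11 (adjusted p = 1.035e-05) that was -0.66 with chromosomes centred. Ptprv, a receptor phosphatase gene of the p53 arrest pathway in mouse, had 24 and 14 counts in KO clone 1, 7 and 6 counts in KO clone 2, and 9 and 35 counts in WT, where the libraries were shallower. Its mean log2 fold change was -2.14 ± 0.32 (adjusted p = 2.22e-04). The mean and KO clone 2 kept their calls for Ptprv in all 16 alternatives. In KO clone 1 (-1.47) the call ended without WT replicate 2 and with DESeq2. Plk3, a stress-responsive polo-like kinase gene, had 21.2 and 18.2 CPM in KO clone 1, 26.1 and 24.3 CPM in KO clone 2, and 41.0 and 41.5 CPM in WT. Every knockout library lay below WT, with a mean log2 fold change of -0.89 ± 0.13 (adjusted p = 1.71e-04) that was -0.52 with chromosomes centred (adjusted p = 0.00830).

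**Figure D4:**
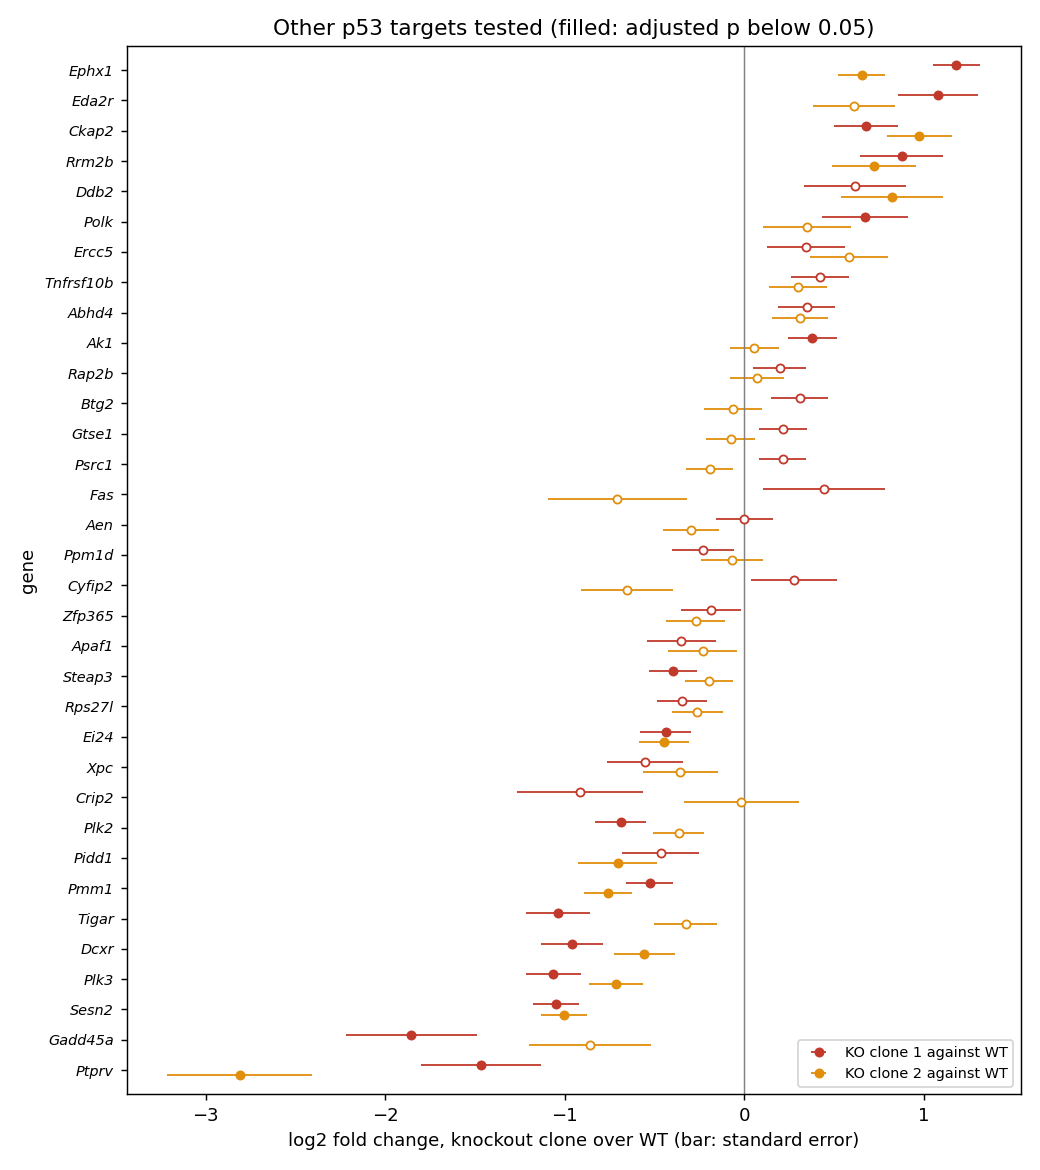
Log2 fold change (horizontal axis) of the 34 tested genes of the wider p53 target list in KO clone 1 and in KO clone 2, each over WT, with bars of 1 standard error; filled points have an adjusted p below 0.05. Points lie on both sides of 0, with Ephx1 farthest to the right in KO clone 1 and Ptprv farthest to the left in KO clone 2.

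p21 acts on cyclin-dependent kinases and, through the pocket proteins, on the DREAM repressor complex. Of 21 partners and DREAM components or targets, all tested, 6 rose, 4 fell and 11 did not pass in the mean (47.6% called, beside 34.8% of all tested genes), with a median of 0.18. Cdk6, a G1 kinase gene, had 39.9 and 50.1 CPM in KO clone 1, 62.1 and 52.8 CPM in KO clone 2, and 23.3 and 30.4 CPM in WT (mean 0.89 ± 0.16). Its relative Cdk4 had 638.6 and 576.8 CPM in KO clone 1, 644.6 and 688.2 CPM in KO clone 2, and 1182 and 964 CPM in WT (mean -0.75 ± 0.12). The pair moved in opposite directions in both clones. Rbl1, the pocket protein p107, and Lin9, a DREAM core gene, rose by 0.72 ± 0.16 and 0.74 ± 0.21 in the mean. Rbl1 was at 0.38 under the GC and length offset, where neither clone alone was called. Lin9 lost its call when thinned and under the GC and length offset (as low as 0.42, adjusted p up to 0.0849).

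Of 13 other BCL2 family genes 11 were tested, of which 1 rose, 1 fell and 9 did not pass in the mean (18.2% called, beside 34.8%). Bcl2l11, the BH3-only gene of Bim, fell to 10.3 and 9.79 CPM in KO clone 1 and 6.72 and 6.84 CPM in KO clone 2, against 13.8 and 23.2 CPM in WT (mean -1.24 ± 0.19, adjusted p = 2.20e-04). Without WT replicate 2 its mean was -0.74, and KO clone 1 was at -0.45 and lost its call (adjusted p = 0.202). Bik, another BH3-only gene, had 25 and 15 counts in KO clone 1, 18 and 7 counts in KO clone 2, and 1 count in each WT library. Pooled over libraries, 65 knockout and 2 WT counts over the summed scaled totals gave a ratio of 7.14 (95% counting interval 1.90 to 60.2). The call of Bik was lost in 4 of 16 alternatives in KO clone 1 and in 10 of 15 in KO clone 2. In KO clone 2 the losses included other scalings and limma-voom. Its call in the mean ended without WT replicate 2 or KO clone 2 replicate 1, with unstranded counts and with DESeq2, with adjusted p up to 0.267.

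Targets of ATF4, the transcription factor of amino acid and endoplasmic reticulum stress, were examined because Bbc3, Gdf15 and Sesn2 are also known to respond to that pathway. Of 10 such genes 9 were tested, and 8 fell in KO clone 1, in KO clone 2 and in the mean, where 16.5%, 14.5% and 18.2% of all tested genes were lower. The median was -1.03 in the mean. Sesn2 belongs both to this list and to the wider p53 list. Trib3, a stress pseudokinase gene, had 23.6 and 20.8 CPM in KO clone 1, 29.5 and 35.5 CPM in KO clone 2, and 73.5 and 111 CPM in WT (mean -1.80 ± 0.15). The cystine transporter gene Slc7a11 was at -1.68 ± 0.21 in the mean, Ddit3, the gene of CHOP, at -1.49 ± 0.14, and Chac1, a glutathione-degrading enzyme gene, at -1.16 ± 0.14. The part of this pathway in the falls of Bbc3 and Gdf15 was not tested.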

How the data were processed

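Total RNA of 6 NIH/3T3 libraries was rRNA-depleted and sequenced as strand-specific libraries, per the labels' protocols. Reads were viewed with FastQC and aligned with STAR 2.6.0c to GRCm38, per the submitters' processing notes. The deposited files hold raw read counts per gene in STAR's layout, with no normalization; the counts of the reverse strand were used, as the kit marks it. The opposite strand held 4.68% to 6.10% of both strands' reads. Rows without a gene (46.6% to 50.5% of reads) were left out. The sources used here do not name the annotation behind the counts. Reads with several hits or over overlapping genes are not counted by STAR.

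GENCODE M21 matched 54079 of 54146 identifiers. edgeR 4.0.16 in R 4.3.3 fitted 1 quasi-likelihood model to all 6 libraries (minimum count 10, TMM, 3 residual degrees of freedom), with p-values adjusted by Benjamini-Hochberg over 13120 genes. KO clone 1, KO clone 2 and their mean were each compared with WT, and KO clone 2 with KO clone 1. Steps were tested on simulated data. Replicates differed by more than sampling noise (chi-square per degree of freedom 19.2 in KO clone 1, 21.6 in KO clone 2 and 12.7 in WT).

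The members and the lists were chosen with earlier results of these data known. A gene of the wider target list is not reported here. The rule names all members, Mki67, Trp53, Mdm4, Cdkn2a, up to 4 genes per other list with the largest change among those called in both clones in one direction, and the 3 genes nearest to Cdkn1a; genes outside the rule, such as those called oppositely in the clones, were picked with their values in view. Alternatives were other scalings, filters and strands, thinning, each library left out, fits of fewer groups, chromosome centring, a GC and length offset, a replicate block, limma-voom (limma 3.58.1) and DESeq2 1.42.0.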

Additional observations from a re-analysis of the deposited data

Results flagged for a closer look

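Of the members and the genes named from the lists, 3 differed between the clones by the contrast itself (edgeR's quasi-likelihood test). Over all genes tested, 465 of 13120 were called (3.54%). The list genes named by largest change had been called in the same direction in both clones. Over the whole lists, 1 of 10 members, 3 of 34 wider targets, 1 of 11 BCL2 family genes and 1 of 9 ATF4 targets were called. The calls were 0 of 17 among the regulators and 0 of 21 among the p21 partners and DREAM genes. Dusp1, Slc35b4 and Eno3, chosen by pattern, and the other genes called oppositely in the clones, listed below, are not counted here. They were chosen by their differences between the same libraries, so a call in this contrast adds nothing for them. The log2 difference of KO clone 2 minus KO clone 1 was -1.03 ± 0.12 for Cdkn1a (adjusted p = 1.31e-04), with both KO clone 2 libraries below both KO clone 1 libraries. Ephx1 was at -0.53 ± 0.13 (adjusted p = 0.0328), a call that ended without any 1 of the 4 knockout libraries and with chromosomes centred (adjusted p up to 0.364). Chac1 was higher in KO clone 2, at 0.77 ± 0.16 (adjusted p = 0.0142), and lost its call without KO clone 1 replicate 2 or either KO clone 2 library (adjusted p up to 0.161). Each clone is 1 line, so the source of these differences was not tested.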

How the results depend on the processing

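Of 709 values of members under alternatives, 24 lost a call and 10 gained one in the same direction. A further 37 values had the other sign, none of them of a result called as reported; 1 was called, the mean of Phlda3, at -0.01 as reported and 0.24 with the GC and length offset. Others include the means of Sesn1 (0.13 without WT replicate 2), Trp53inp1 (0.32 with chromosomes centred) and Zmat3 (-0.03 with chromosomes centred). Causes were not tested. Gdf15 gave no value with a minimum of 50 counts or when thinned. It had 16 alternative values for the mean and 15 for each clone against WT and between the clones. Among other named genes 1349 of 1423 values stayed on their side of the threshold, 66 lost a call and 8 gained one. The mean of both clones called 3359 to 5022 genes and 3 to 5 members; its 2176 higher and 2385 lower genes became 2604 and 1949 with library totals only, and 2745 and 2277 without a filter. In KO clone 1 against WT, leaving out 1 library gave 2205 (without KO clone 1 replicate 2) to 4348 genes, beside 4154. In KO clone 2 against WT it gave 1668 (without KO clone 2 replicate 1) to 4010 genes, beside 3592, with 2083 without KO clone 2 replicate 2, and 2 to 5 members, beside 5 (2 without either KO clone 2 library); thinning to equal depth gave 3 members. Between clones 465 genes were called, but 813 without a filter, 247 when thinned, 847 with the GC and length offset and 156 to 1207 with 1 library left out (1202 and 1207 without WT replicate 1 or 2, 203 and 247 without KO clone 1 replicate 1 or 2, 164 and 156 without KO clone 2 replicate 1 or 2), and 1 to 2 members, beside 1. Where an arm keeps 1 library, it is assumed to vary like the others. Same-numbered replicates deviated at correlations of 0.237 (KO clone 1 and WT) and -0.076 (KO clone 2 and WT). Between KO clone 2 and KO clone 1 the value was -0.103. With 2 libraries per group these values cannot decide whether the numbers pair. With a replicate block 4874, 4447, 3955 and 635 genes and 4, 4, 5 and 1 members were called in the mean, KO clone 1, KO clone 2 and between clones. Without scaling the median of all genes shifted by 0.0771. Without WT replicate 1, the shallowest library, Mdm2, Ccng1 and Bbc3 were still called in the mean and Gdf15 was not (-1.45, adjusted p = 0.131).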

Other observations

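Cdkn1a was one of 12 genes called in opposite directions in the clones, listed after their values were seen. Of these, 11 were higher in KO clone 1 and lower in KO clone 2. Acta1, the skeletal muscle actin gene, had 14.1 and 13.1 CPM in KO clone 1, 0.308 and 0.326 CPM in KO clone 2, and 2.44 and 1.71 CPM in WT. Actg2, a smooth muscle actin gene, had 46.8 and 45.8 CPM in KO clone 1, 6.04 and 7.49 CPM in KO clone 2, and 27.9 and 23.1 CPM in WT. Csrp1, a LIM protein gene of actin bundles, had 223.3 and 218.8 CPM in KO clone 1, 76.8 and 92.2 CPM in KO clone 2, and 141.9 and 133.4 CPM in WT. The 1 gene of the opposite kind was Ppargc1a, a coactivator of mitochondrial genes, with 0.303 and 0.126 CPM in KO clone 1, 2.10 and 3.06 CPM in KO clone 2, and 0.543 and 0.991 CPM in WT. Of the 12, B4galt4 differed most between the clones, by -10.5 on the log2 scale. It had 12.9 CPM in both KO clone 1 libraries, 0 CPM in both KO clone 2 libraries, and 5.70 and 7.03 CPM in WT. The others were Ikzf1, Srpx2, Ehhadh, Atp2b4, Mogat2 and Plac8.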
